A study of Mus musculus with 12 samples.

Results

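The genes described here are the semaphorins, plexins and neuropilins of the mouse: 20 semaphorins, 9 plexins and 2 neuropilins, 31 genes in all. They were chosen by gene family name, and each was listed under its symbol in the tables of all 3 ages, among 25834 genes that the 3 tables shared. All 31 were among the 15734 genes with enough RNA to be tested.

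RNA was measured in nuclei that had been purified from the cortex of male mice at postnatal day 0 (P0), day 14 (P14) and day 28 (P28), with 4 biological replicates at each age. Every animal, at every age, carried 1 copy of CAG-Sun1/sfGFP, which encodes a green fluorescent tag on the nuclear envelope, and 1 copy of NEX-Cre, and the labels name no other allele and no agent. The library names of P0 and P14 carry the letters WT and those of P28 do not, and each age has its own table, so any difference in how the ages were handled cannot be told apart from age. NEX-Cre is driven from the Neurod6 locus, which is active in excitatory neurons of the forebrain, and the tagged nuclei were captured by the INTACT method (isolation of nuclei tagged in specific cell types). Because the RNA was nuclear and polyadenylated, the values include transcripts that had not reached the cytoplasm.

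Semaphorins are secreted or membrane-bound proteins that steer growing axons and migrating neurons, and in the later cortex they act on dendrites and synapses. Plexins are their main receptors and carry a cytoplasmic domain that acts on small GTPases. Most secreted class 3 semaphorins cannot bind plexins by themselves and use a neuropilin as the ligand-binding partner of a class A plexin, while membrane-bound semaphorins generally bind plexins directly.

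Values are given as scaled CPM, that is, CPM (reads scaled to a common total per library) taken over the shared genes and divided by a factor per library that corrects for differences in RNA composition. Changes are log2 fold changes on the scale log2(scaled CPM + 0.5), which understates changes of genes near 0, and "rose" or "fell" is written where the Benjamini-Hochberg adjusted p of limma, taken over all 15734 genes, was under 0.05. Values of the 4 libraries of an age are listed by replicate number, which carries no order.

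Depth was 13195973 to 16599217 reads per library for P0, 25486861 to 33611769 for P14 and 21569262 to 31215435 for P28, so 3 reads stood for 0.0858 to 0.236 scaled CPM. P14 replicate 2 stood apart: its correlation with the other libraries of its age averaged 0.951, against at least 0.976 for each of the other 11 libraries. Neurod6 itself had means of 282, 62.5 and 53.8 scaled CPM at P0, P14 and P28, and Slc17a7, the vesicular glutamate transporter of mature excitatory neurons, had 129, 1444 and 2008. Of 8 excitatory neuron markers 6 fell and 1 rose from P0 to P14, beside 34.5% and 34.4% of all genes. The summed level of these 8 markers per library was 1626 to 1865, 1341 to 2255 and 2446 to 2566 at P0, P14 and P28. Markers of other cells were also detected, and several moved with age. From P0 to P14 the vessel and pericyte markers fell in 9 of 9 genes (summed level per library 856 to 1415 scaled CPM for P0, 67.3 to 194 for P14, 40.5 to 85.7 for P28), the oligodendrocyte markers rose in 7 of 7 (78.7 to 90.6, 956 to 2360 and 1746 to 2835), the microglial markers rose in 7 of 7 (25.5 to 36.7, 44.7 to 91.6 and 66.7 to 81.3) and the progenitor markers fell in 5 of 6 (159.9 to 224, 26.3 to 62.1 and 18.3 to 22.8). Of 11 inhibitory neuron markers 5 fell (Dlx1, Dlx2, Dlx5, Dlx6 and Lhx6) and 2 rose (Pvalb and Vip). Their summed level per library was 415 to 430, 231 to 366 and 301 to 394 scaled CPM at P0, P14 and P28. Gad1, which did not pass, had means of 100.02, 110.4 and 126 scaled CPM. Of the astrocyte list 2 of 6 genes rose and 1 fell, and of the oligodendrocyte precursor list 2 of 5 rose and 1 fell. The same 34.5% of all genes that fell and 34.4% that rose stand beside all these marker counts. No marker gene of these lists was at 0 in all libraries.

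Between P0 and P14 most of these genes fell. Of the 31, 19 fell and 4 rose, with a median log2 fold change of −0.98. Among all 15734 genes 34.5% fell and 34.4% rose, with a median of 0.01. The falls took in 10 of the 11 receptors, which had a median of −1.54, and 9 of the 20 semaphorins, which had a median of −0.47. The 4 that rose were Sema3e, Sema4a, Sema4f and Plxnb3. In bulk nuclei such as these, fewer cells of a type and less RNA per cell cannot be told apart. The authors normalized each age in its own table; with their values taken as they stand, the median of all genes moved to 0.47, 8567 genes rose and 3148 fell, in place of 5412 and 5436, and 16 of the 31 genes fell and 9 rose.

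Both neuropilins, the ligand-binding receptors of class 3 semaphorins, fell from P0 to P14, beside 34.5% of all genes. Nrp1 (ENSMUSG00000025810, chr8:128358591-128505476 in GRCm38, as are all positions here), which binds Sema3a and also VEGF, stood at 153, 168, 227 and 171 scaled CPM at P0, 71.9, 63.4, 70.005 and 69.5 at P14 and 58.9, 51.5, 52.2 and 52.9 at P28. Its change from P0 to P14 was −1.36 ± 0.11 (SE, adjusted p = 1.55e-07). Nrp2 (ENSMUSG00000025969, chr1:62703317-62818692), which prefers Sema3f, stood at 146, 161, 188 and 233 scaled CPM at P0, 28.7, 34.6, 43.7 and 38.9 at P14 and 56.1, 50.03, 45.8 and 43.8 at P28. Its change was −2.29 ± 0.16 (SE, adjusted p = 2.69e-08), a 4.90-fold fall beside 2.58-fold for Nrp1. All 4 P0 libraries lay above all 8 later ones for both genes. Nrp1 and Nrp2 are also made by vessels, whose markers fell in 9 of 9 genes over the same interval, and the part of those cells was not tested. The ratio of Nrp2 to Nrp1 within a library was 0.953, 0.956, 0.8285 and 1.37 at P0, 0.400, 0.546, 0.625 and 0.560 at P14 and 0.953, 0.971, 0.879 and 0.8286 at P28, so the P14 libraries had the 4 lowest ratios of the 12.

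All 4 class A plexins, the signalling partners of the neuropilins, fell from P0 to P14, beside 34.5% of all genes. Plxna2 (ENSMUSG00000026640, chr1:194619791-194816869), which also binds Sema6a directly, had 592, 588, 742 and 585 scaled CPM at P0, 316, 172, 329 and 247 at P14 and 305, 272, 282 and 274 at P28. Its log2 fold change was −1.27 ± 0.17 (SE, adjusted p = 1.81e-05). Plxna4 (ENSMUSG00000029765, chr6:32144543-32588192), which serves in Sema3a signalling and is also a receptor of Sema6 proteins, had 396, 465, 592 and 430.4 scaled CPM at P0, 164, 95, 174 and 120.3 at P14 and 163, 139, 126 and 131 at P28. Its change was −1.79 ± 0.18 (SE, adjusted p = 1.32e-06). In both genes every P0 library was higher than every P14 library, and P14 replicate 2 was the lowest of its age. Plxna3 (ENSMUSG00000031398, chrX:74328290-74344689), a partner of Nrp2 in Sema3f signalling, had 279, 279.9, 256 and 225 scaled CPM at P0, 70.1, 104, 59.4 and 77.4 at P14 and 56.7, 55.9, 57 and 64.6 at P28, with a change of −1.76 ± 0.14 (SE, adjusted p = 1.52e-07). Plxna1, which is the receptor chain of several class 3 and class 6 semaphorins, had 346 ± 56, 121 ± 34.2 and 124 ± 6.30 scaled CPM (mean ± SD) at P0, P14 and P28 and changed by −1.54 ± 0.19 (SE, adjusted p = 8.03e-06). No P14 or P28 library of any of the 4 reached the lowest P0 library.

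Of the 3 class B plexins, which bind class 4 semaphorins and couple to RhoA exchange factors, 2 fell and 1 rose. Of all genes, 34.5% fell and 34.4% rose. Plxnb1 (ENSMUSG00000053646, chr9:109093849-109119915), the receptor of Sema4d, had 239, 232, 199.7 and 196 scaled CPM at P0, 48.2, 40.9, 39.8 and 29.5 at P14 and 28.7, 29.9, 29.7 and 34.6 at P28. It was 5.47-fold lower at P14 than at P0, a log2 fold change of −2.45 ± 0.13 (SE, adjusted p = 3.53e-09), the largest fall among the 11 receptors. Plxnb2 (ENSMUSG00000036606, chr15:89155546-89182018), a receptor of Sema4c that neuronal progenitors use, had 281, 295, 297 and 272 scaled CPM at P0, 82.4, 89.5, 73.8 and 77.5 at P14 and 91.9, 87.5, 93.3 and 102 at P28 and changed by −1.82 ± 0.08 (SE, adjusted p = 6.53e-10). Progenitor markers fell beside it in 5 of 6 genes, Mki67 among them with means of 68.6, 6.68 and 2.38 scaled CPM, and their part in the result was not tested. Plxnb3 (ENSMUSG00000031385, chrX:73756556-73772510) was the least abundant receptor and the one that rose. It had 0.964, 1.60, 0.786 and 0.748 scaled CPM at P0, 12.2, 11.6, 8.26 and 10.2 at P14 and 8.76, 6.42, 6.08 and 5.97 at P28, from 10 to 404 reads a library, with a change of 2.88 ± 0.20 (SE, adjusted p = 3.17e-08). Its P0 level was near 1 scaled CPM, so it was tested through its later levels. Plxnb3 is known as a receptor of Sema5a and is expressed in oligodendrocytes of the adult brain; Mbp, a myelin gene of those cells, had means of 36.9, 911 and 936 scaled CPM, and the part of those cells in the rise was not tested.

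Plxnc1 and Plxnd1 had small changes from P0 to P14, with 95% intervals of −0.66 to −0.05 and −0.44 to −0.04. Plxnc1 (ENSMUSG00000074785, chr10:94790866-94945015), the receptor of Sema7a, had 71.9, 102, 92.2 and 74.8 scaled CPM at P0, 71.3, 49.7, 69.5 and 75.6 at P14 and 96.1, 87, 84.9 and 84.8 at P28. Its change from P0 to P14 was −0.36 ± 0.14 (SE, adjusted p = 0.0362), and at P28 it stood 0.06 from P0 (95% interval −0.24 to 0.37). Plxnd1 (ENSMUSG00000030123, chr6:115954811-115995339), which binds Sema3e without a neuropilin and also serves in vessels, had 218, 244, 249 and 255 scaled CPM at P0, 194, 195, 196 and 235 at P14 and 222, 221, 232 and 258 at P28. Its change was −0.24 ± 0.09 (SE, adjusted p = 0.0322), and the interval from P0 to P28 was −0.25 to 0.15. The libraries of P0 and P14 overlapped for both genes, and both calls were lost under library total scaling, TMM scaling, edgeR's quasi-likelihood test and limma on the 8 libraries. The Plxnc1 call was also lost without P0 replicate 2 or 3 or P14 replicate 2 (log2 fold change −0.31 to −0.22, adjusted p 0.0746 to 0.119) and the Plxnd1 call without P0 replicate 2, 3 or 4 or P14 replicate 1 or 3 (log2 fold change −0.23 to −0.21, adjusted p 0.0644 to 0.0792). Limma with replicate number as a block also lost the Plxnc1 call (adjusted p = 0.0674). On the deposited values as they stand Plxnc1 had 0.12 (adjusted p = 0.436) and Plxnd1 passed as a rise (0.24, adjusted p = 0.0295), both below the 0.47 by which all genes moved.

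**Figure D1:**
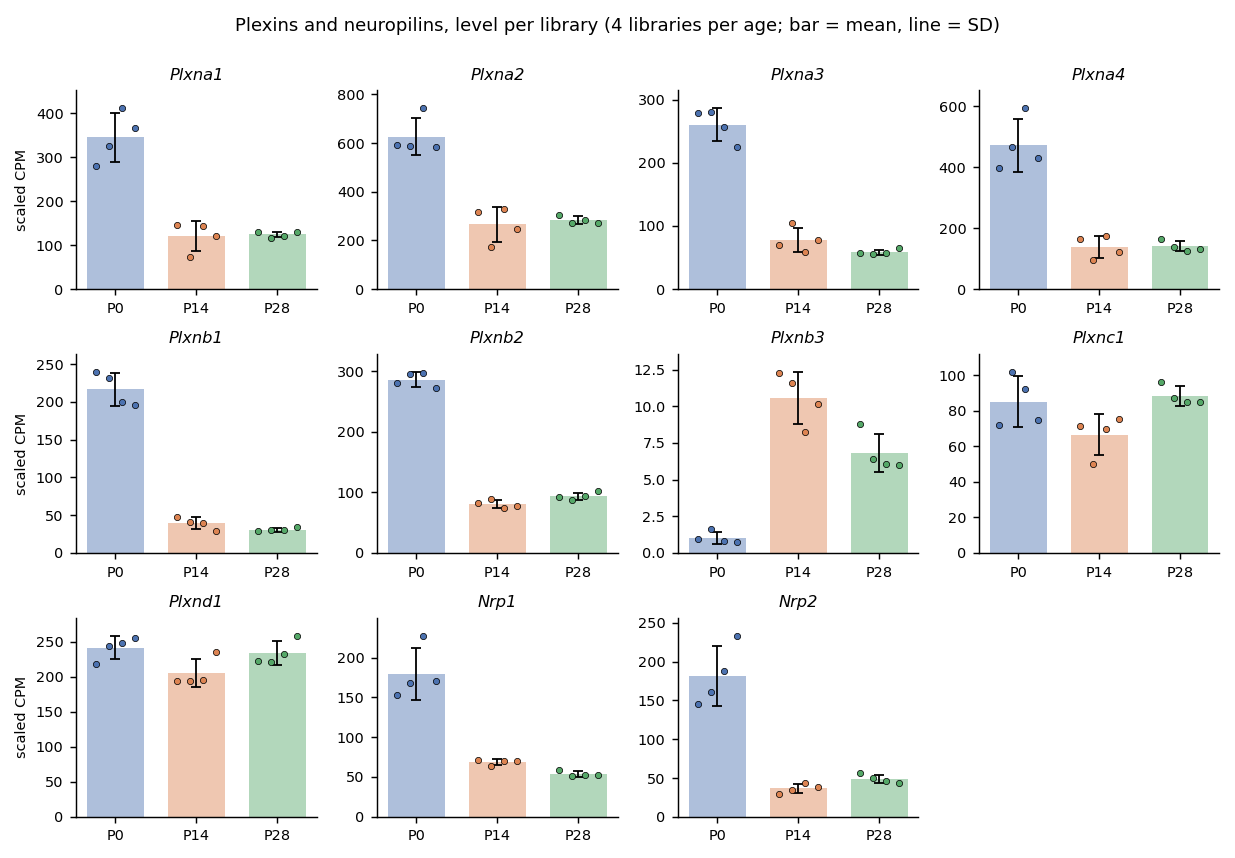
Levels of the 9 plexins and 2 neuropilins by age, in scaled CPM on linear axes that differ between panels; points are the 12 libraries, bars the mean and lines the SD of 4 libraries. Nrp1, Nrp2, the class A plexins, Plxnb1 and Plxnb2 are highest at P0, Plxnb3 is lowest there, and the ages overlap between P0 and P14 in Plxnc1 and Plxnd1.

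Of the 7 secreted class 3 semaphorins, 3 fell (42.9%), 1 rose (14.3%) and 3 did not pass the test from P0 to P14, beside 34.5% and 34.4% of all genes. Sema3c (ENSMUSG00000028780, chr5:17574816-17730268), a ligand of both neuropilins that attracts cortical axons, had 69.4, 108, 136 and 136 scaled CPM at P0, 19.3, 12, 22 and 19 at P14 and 10.04, 10.7, 12.2 and 9.26 at P28. It was 6.01-fold lower at P14 than at P0, a log2 fold change of −2.59 ± 0.22 (SE, adjusted p = 2.28e-07). Sema3f (ENSMUSG00000034684, chr9:107681499-107710475), the repulsive ligand of Nrp2 that limits dendritic spines, had 82, 74.4, 68.8 and 73.2 scaled CPM at P0, 25.9, 33.3, 19.3 and 22.9 at P14 and 29.2, 27.9, 28.4 and 27.9 at P28 and changed by −1.56 ± 0.14 (SE, adjusted p = 2.81e-07). The falls separated all P0 libraries from all later ones in both genes. Sema3a (ENSMUSG00000028883, chr5:13124822-13603485), the repulsive ligand of Nrp1 known for axon collapse, had 59.7, 73.7, 62.7 and 79.6 scaled CPM at P0, 38.9, 23.9, 44.8 and 43.9 at P14 and 42.5, 29.9, 30.9 and 27.3 at P28. Its change was −0.89 ± 0.19 (SE, adjusted p = 0.00108); on the deposited values as they stand that call was lost (−0.41, adjusted p = 0.0735).

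Sema3e was the class 3 gene that rose. Sema3e (ENSMUSG00000063531, chr5:14025276-14256689), the ligand of Plxnd1, had 6.20, 9.19, 11.6 and 9.95 scaled CPM at P0, 23, 15.4, 29.4 and 25.1 at P14 and 33.7, 25.9, 29.5 and 24.6 at P28. The change was 1.28 ± 0.21 (SE, adjusted p = 1.07e-04), 2.43-fold, and all P14 and P28 libraries lay above all P0 libraries. Sema3b, Sema3d and Sema3g were low at every age. Sema3b had 2.11 ± 0.636, 2.35 ± 0.462 and 2.07 ± 0.443 scaled CPM (mean ± SD) at P0, P14 and P28, from 21 to 104 reads a library, and its change was 0.14 ± 0.20 (SE, adjusted p = 0.541); on the deposited values as they stand it passed as a rise (0.54, adjusted p = 0.0267), beside the 0.47 by which all genes moved. Sema3d had 5.40 ± 1.54, 4.08 ± 1.90 and 2.44 ± 0.361 scaled CPM (mean ± SD) and changed by −0.42 ± 0.30 (SE, adjusted p = 0.219). Sema3g (ENSMUSG00000021904, chr14:31217873-31230352), which is made by vessels and signals through Nrp2, had 6.20, 13.3, 12.6 and 4.94 scaled CPM at P0, 8.86, 1.80, 4.47 and 14.6 at P14 and 6.49, 1.01, 1.73 and 2.01 at P28. Its libraries overlapped between ages and spread widely within each; the change was −0.50 ± 0.57 (SE, adjusted p = 0.444). Cldn5, a tight junction gene of brain vessels, had means of 226, 18.7 and 6.19 scaled CPM beside it, and its part in the Sema3g values was not tested.

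The 13 membrane-bound semaphorins held 6 that fell (46.2%), 2 that rose (15.4%) and 5 that did not pass, beside the same 34.5% and 34.4% of all genes. The 2 largest falls were in class 4, whose members signal mostly through class B plexins. Sema4c (ENSMUSG00000026121, chr1:36548639-36560699), the ligand of Plxnb2, had 193, 161, 193 and 208 scaled CPM at P0, 19.9, 18.3, 19.2 and 21.4 at P14 and 33.1, 26.6, 33 and 30.3 at P28. It was 9.34-fold lower at P14 than at P0, a log2 fold change of −3.22 ± 0.10 (SE, adjusted p = 3.80e-11), the largest fall of the 31 genes. Sema4g (ENSMUSG00000025207, chr19:44988743-45003397), a further ligand of Plxnb2, had 286, 210.3, 205 and 219 scaled CPM at P0, 46.6, 59.2, 37.3 and 39.99 at P14 and 22, 23.9, 25.2 and 24.1 at P28 and changed by −2.33 ± 0.14 (SE, adjusted p = 1.01e-08). Sema4b, which takes part in synapse formation, had 46.2 ± 3.64, 21.3 ± 1.44 and 23.9 ± 2.42 scaled CPM (mean ± SD) at P0, P14 and P28, with a change of −1.10 ± 0.10 (SE, adjusted p = 5.68e-07). In these 3 genes no P14 library reached the lowest P0 library.

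Sema4a and Sema4f went the other way. Sema4a (ENSMUSG00000028064, chr3:88435959-88461182), a ligand with roles in the retina and in immune cells, had 43.6, 46.4, 42.4 and 38 scaled CPM at P0, 79.8, 122, 73.8 and 88.9 at P14 and 94.5, 93.1, 98 and 98.6 at P28. It rose 2.09-fold, by 1.07 ± 0.13 (SE, adjusted p = 8.87e-06), and no P14 library fell to the level of P0. Sema4f, a membrane protein found at glutamatergic synapses, had 69.2, 62.7, 63 and 73.6 scaled CPM at P0, 73.3, 91, 74.1 and 83.2 at P14 and 89.7, 86.8, 87.4 and 83.5 at P28. Its rise was small, 0.26 ± 0.09 (SE, adjusted p = 0.0214), its P0 and P14 libraries overlapped, and the call was lost in limma on the 8 libraries and without P0 replicate 2 or 3 or P14 replicate 4 (log2 fold change 0.23 to 0.24, adjusted p 0.0552 to 0.0613). Sema4d, the ligand of Plxnb1, had 41.5, 42.1, 54.4 and 45 scaled CPM at P0, 50.001, 15.9, 45 and 34.8 at P14 and 52.2, 44, 42.8 and 44.4 at P28. It did not pass (−0.44 ± 0.27, adjusted p = 0.160, 95% interval −1.01 to 0.14). It passed without P14 replicate 1 (−0.63, adjusted p = 0.0480), while without P14 replicate 2 its change was −0.09 (adjusted p = 0.544).

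In class 6, whose members bind class A plexins directly, 3 of 4 genes fell from P0 to P14, beside 34.5% of all genes. Sema6c (ENSMUSG00000038777, chr3:95160420-95174050) had 182, 170.3, 158 and 183 scaled CPM at P0, 50.6, 59.2, 46 and 45.9 at P14 and 33, 38.4, 35.6 and 35.1 at P28, with a change of −1.78 ± 0.10 (SE, adjusted p = 3.57e-09). Sema6d, a ligand of Plxna1, had 128 ± 23.6, 43.7 ± 2.94 and 44.4 ± 2.25 scaled CPM (mean ± SD) at P0, P14 and P28 and changed by −1.52 ± 0.12 (SE, adjusted p = 1.14e-07). Sema6a, a ligand of Plxna2 and Plxna4, had 83.2, 94.9, 99.6 and 92.6 scaled CPM at P0, 48, 53.2, 43.5 and 42.9 at P14 and 31.8, 31.3, 27.8 and 29.8 at P28 and changed by −0.98 ± 0.10 (SE, adjusted p = 8.65e-07). The fourth gene, Sema6b (ENSMUSG00000001227, chr17:56123085-56140343), a ligand of Plxna4, had 109, 99.4, 101 and 137 scaled CPM at P0, 129.8, 105, 129 and 105 at P14 and 166, 202, 156 and 174 at P28. Its P0 and P14 libraries overlapped and its change was 0.08 ± 0.12 (SE, adjusted p = 0.590), with a 95% interval of −0.19 to 0.34. On the deposited values as they stand it passed as a rise (0.56, adjusted p = 0.00112), beside the 0.47 by which all genes moved.

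Class 5 and class 7 did not pass. Sema5a, which carries thrombospondin repeats and limits synapse number, had 43.5, 58.1, 67.4 and 56.3 scaled CPM at P0, 49.9, 22.6, 58 and 51.6 at P14 and 49.3, 47.4, 45.2 and 40.7 at P28, with −0.37 ± 0.24 (SE, adjusted p = 0.180). Sema5b, its relative, had 58.7, 38.6, 37.1 and 51.7 scaled CPM at P0, 47.1, 62.2, 36.9 and 39.2 at P14 and 41.2, 37.3, 35.6 and 35.7 at P28, with −0.01 ± 0.17 (SE, adjusted p = 0.962). The P14 values of both genes spread widely, and P14 replicate 2 was the lowest of its age for Sema5a and the highest for Sema5b. Sema7a (ENSMUSG00000038264, chr9:57939596-57962865), which is anchored to the membrane by a lipid and signals through integrins and Plxnc1, had 179, 192, 219.7 and 233 scaled CPM at P0, 198, 150.3, 179 and 176 at P14 and 209.9, 199, 189 and 191 at P28. Its change was −0.23 ± 0.11 (SE, adjusted p = 0.0712), and it passed without P0 replicate 1 or P14 replicate 1 (log2 fold change −0.29, adjusted p 0.0301 to 0.0349). On the deposited values as they stand Sema5b (0.47, adjusted p = 0.0247) and Sema7a (0.26, adjusted p = 0.0406) passed as rises, beside the 0.47 by which all genes moved.

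**Figure D2:**
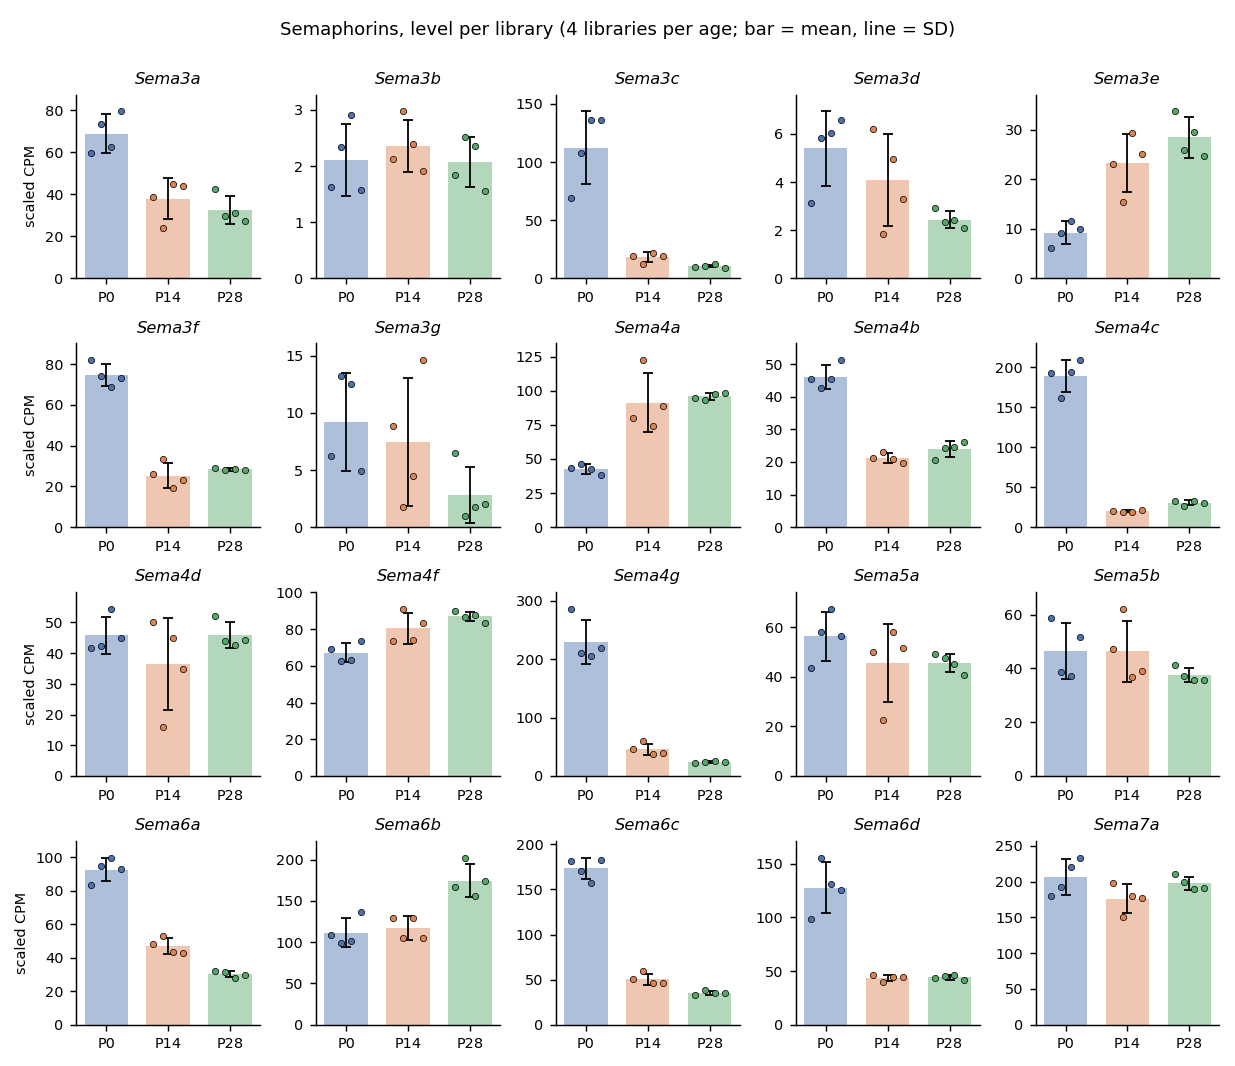
Levels of the 20 semaphorins by age, in scaled CPM on linear axes that differ between panels; points are the 12 libraries, bars the mean and lines the SD of 4 libraries. Sema3c, Sema4c and Sema4g are highest at P0, Sema3e and Sema4a are lowest there, and the Sema3g libraries are spread at every age.

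The sequence before the transcription start is shown for 2 genes that fell and 2 that rose from P0 to P14, the largest changes in each direction among the 5 of these genes with exactly 1 start in the RefSeq promoter table (GRCm38.p6) and a window outside every annotated gene. Each is the 250 bases before the start, 5′ to 3′ on the gene's strand: Sema3c at chr5:17574566-17574815 (plus strand), Nrp2 at chr1:62703067-62703316 (plus), Sema3e at chr5:14025026-14025275 (plus) and Sema4f at chr6:82939770-82940019 (minus). Capitals mark GC boxes, GGGCGG or its reverse complement CCGCCC, the letters that factors of the Sp family bind; neighbouring boxes may overlap.
Sema3c: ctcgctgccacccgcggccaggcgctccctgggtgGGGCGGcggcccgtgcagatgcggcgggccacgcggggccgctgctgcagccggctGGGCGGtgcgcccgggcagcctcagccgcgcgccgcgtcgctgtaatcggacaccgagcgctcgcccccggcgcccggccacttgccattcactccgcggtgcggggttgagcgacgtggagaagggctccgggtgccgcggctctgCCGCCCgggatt
Nrp2: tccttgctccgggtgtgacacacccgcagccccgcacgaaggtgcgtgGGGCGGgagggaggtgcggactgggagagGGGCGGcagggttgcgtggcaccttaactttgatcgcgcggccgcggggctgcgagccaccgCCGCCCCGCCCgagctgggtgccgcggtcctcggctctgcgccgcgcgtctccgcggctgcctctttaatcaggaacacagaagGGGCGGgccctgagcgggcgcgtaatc
Sema3e: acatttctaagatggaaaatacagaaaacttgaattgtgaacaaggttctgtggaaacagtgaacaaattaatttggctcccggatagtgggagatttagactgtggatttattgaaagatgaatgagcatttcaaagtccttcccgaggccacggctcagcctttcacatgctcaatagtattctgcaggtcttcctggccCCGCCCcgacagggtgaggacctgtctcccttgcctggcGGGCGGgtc
Sema4f: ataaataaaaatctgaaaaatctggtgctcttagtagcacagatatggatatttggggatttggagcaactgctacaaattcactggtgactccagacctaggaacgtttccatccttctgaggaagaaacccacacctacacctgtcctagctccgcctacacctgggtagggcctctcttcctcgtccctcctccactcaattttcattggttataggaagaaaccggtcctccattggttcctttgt
The windows of the 2 genes that fell had a GC content of 78.4% (Sema3c) and 72.4% (Nrp2), with 39 and 32 CpG dinucleotides and 3 and 5 GC boxes. The windows of the 2 genes that rose had 48.0% (Sema3e) and 46.0% (Sema4f), with 7 and 4 CpG dinucleotides and 2 and 0 GC boxes. Windows of other genes of the family did not all follow this split: Plxnb3, which rose, had 65.2%, and Sema3a, which fell, had 40.8%. With 4 genes, chosen by their changes, no relation between sequence and change was tested.

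Across the family, 26 of the 31 genes matched the promoter table, with 37 windows of 250 bases. Median GC content was 64.0% in these windows and 52.4% in all 32851 windows of the table, and the median number of CpG dinucleotides was 13 and 6. A GC box on either strand was found in 27 of the 37 windows (73.0%) and in 32.7% of all windows. The letters TATAAA, searched on both strands, were in 0 of the 37 and in 12.4% of all. For the E-box CACGTG the shares were 5.41% and 6.02%, for CAGCTG 16.2% and 13.0%, for CATCTG 5.41% and 14.4%, and for TGACG, part of the site of CREB-type factors, 2.70% and 17.8%. A match describes the letters and is not a known site.

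From P14 to P28 few of these genes changed. Of the 31, 5 fell and 2 rose, beside 9.09% and 9.22% of all genes, and 24 did not pass; the median log2 fold change was 0.09, against −0.01 for all genes. The genes that fell were Sema3c, Sema4g, Sema6a, Sema6c and Nrp1, and those that rose were Sema4c and Sema6b. None of the 9 plexins passed with limma or with edgeR's quasi-likelihood test at this step, though 5 had an unadjusted p under 0.05 with each, and 4 (Plxna3, Plxnb1, Plxnb3 and Plxnc1) passed with DESeq2.

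The falls from P14 to P28 in Sema4g (−0.91 ± 0.14, adjusted p = 0.00111), Sema6a (−0.62 ± 0.10, adjusted p = 9.28e-04) and Sema6c (−0.49 ± 0.10, adjusted p = 0.00435) held in all 26 other settings tried. Each of these genes had also fallen from P0 to P14, but the 2 comparisons share the P14 libraries. Nrp1 changed by −0.35 ± 0.11 (SE, adjusted p = 0.0453), a call made in 13 of the 26 settings and lost without P0 replicate 2 or 4, P14 replicate 1, 3 or 4, or P28 replicate 1, 2, 3 or 4 (log2 fold change −0.39 to −0.33, adjusted p 0.0544 to 0.108). Sema3c changed by −0.72 ± 0.22 (SE, adjusted p = 0.0369), with overlapping libraries and a call in 18 of the 26 settings. It was lost without P0 replicate 2, P14 replicate 1, 3 or 4, or P28 replicate 1, 2, 3 or 4 (log2 fold change −0.79 to −0.62, adjusted p 0.0518 to 0.0990). Sema4c rose by 0.63 ± 0.10 (SE, adjusted p = 0.00153), from 19.7 ± 1.31 to 30.7 ± 3.06 scaled CPM, and stayed below its 189 ± 19.98 at P0. Sema6b rose by 0.57 ± 0.12 (SE, adjusted p = 0.00708), its 4 libraries lying at 105 to 129.8 scaled CPM at P14 and 156 to 202 at P28.

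The counts at this step rested on single libraries. Without P14 replicate 2, 8 genes fell and 5 rose: Sema3a (−0.39, adjusted p = 0.0469), Sema3d (−0.83, 0.0200) and Sema3g (−1.68, 0.0247) were added to the falls, and Sema3f (0.33, 0.0265), Sema4a (0.25, 0.0439) and Plxnb2 (0.26, 0.0179) to the rises. Of the 15642 genes tested without P14 replicate 2, 2086 fell and 1968 rose, in place of 1431 and 1450 with all 12 libraries. Without P14 replicate 1, P28 replicate 2, P28 replicate 3 or P28 replicate 4, 3 genes fell, beside 900 to 1249 of all genes. Plxnc1 (0.42 ± 0.14, adjusted p = 0.0529) and Nrp2 (0.43 ± 0.16, adjusted p = 0.0722) had P28 libraries that all lay above the P14 libraries and did not pass. Plxnc1 passed without P0 replicate 1 or 2 (log2 fold change 0.42, adjusted p 0.0490 to 0.0495), and Nrp2 passed without P0 replicate 4 or P14 replicate 3 (log2 fold change 0.43 to 0.52, adjusted p 0.0452 to 0.0479). Plxnb3 had −0.60 ± 0.20 (SE, adjusted p = 0.0527) and passed in 11 of the 26 settings, among them without P0 replicate 2, P14 replicate 3, or P28 replicate 1 (log2 fold change −0.72 to −0.60, adjusted p 0.0331 to 0.0414). Plxna3 had −0.38 ± 0.14 (SE, adjusted p = 0.0829) and passed in 3 of the 26, 1 of them without P14 replicate 3 (−0.50, adjusted p = 0.0266). Plxnb1 had −0.34 ± 0.13 (SE, adjusted p = 0.0904) and also passed in 3, 1 of them without P14 replicate 4 (−0.48, adjusted p = 0.0169).

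**Figure D3:**
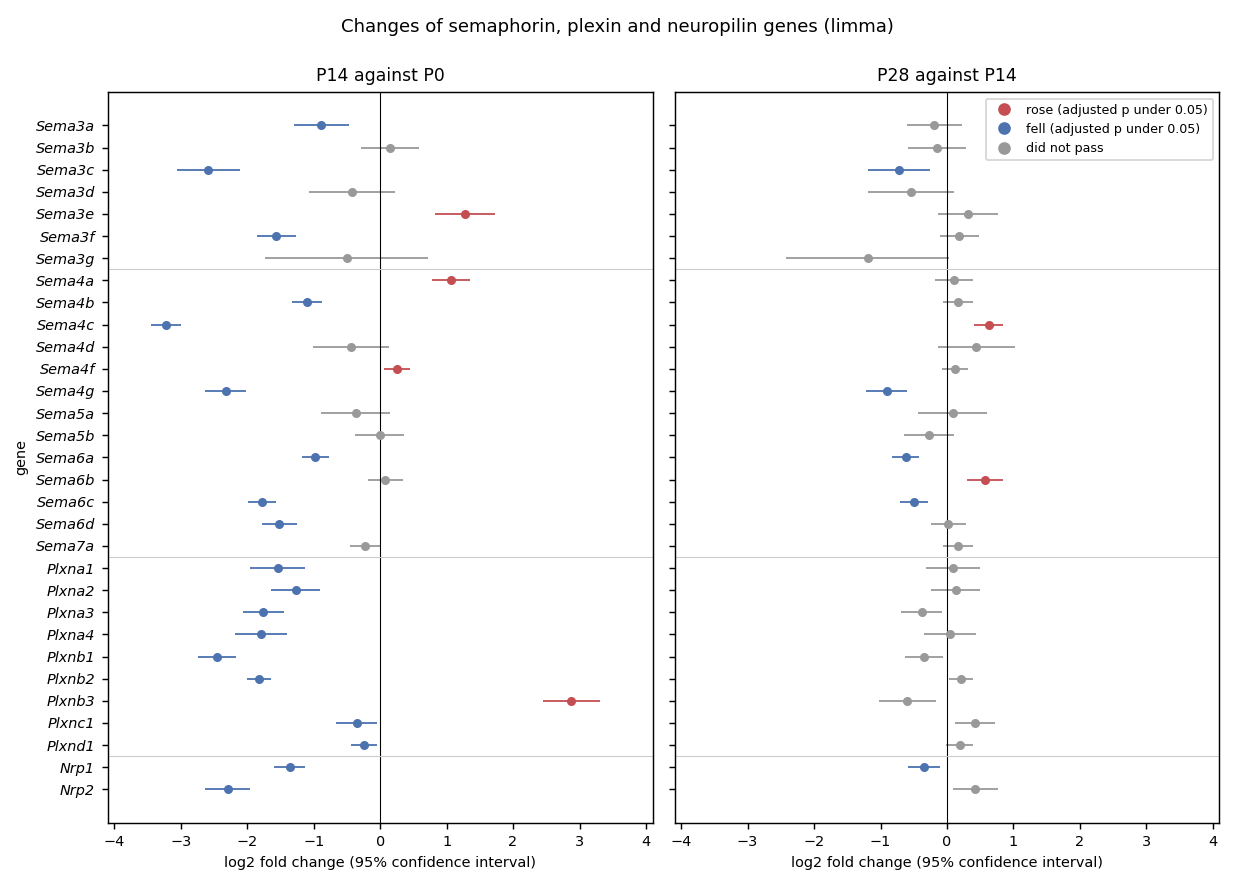
Log2 fold changes of the 31 genes with 95% confidence intervals from limma, P14 against P0 on the left and P28 against P14 on the right; red rose, blue fell and grey did not pass at an adjusted p under 0.05. The left panel holds 19 falls and 4 rises and the right panel 5 falls and 2 rises.

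From P0 to P28, 19 of the 31 genes fell and 5 rose, beside 35.6% and 35.7% of all genes, with a median log2 fold change of −1.14 against 0.00. The receptors held 8 falls and 1 rise of 11, and the semaphorins 11 falls and 4 rises of 20. This comparison shares its libraries with the other 2, so its values stand beside theirs and add no independent count. Sema3c (−3.31 ± 0.22, adjusted p = 1.48e-08), Sema4g (−3.24 ± 0.14, adjusted p = 3.14e-10) and Plxnb1 (−2.80 ± 0.13, adjusted p = 6.44e-10) had the largest falls. The largest rises were those of Plxnb3 (2.28 ± 0.20, adjusted p = 2.33e-07), Sema3e (1.59 ± 0.21, adjusted p = 1.28e-05) and Sema4a (1.17 ± 0.13, adjusted p = 3.07e-06). Sema3d (−0.97 ± 0.30, adjusted p = 0.0103) and Sema3g (−1.70 ± 0.57, adjusted p = 0.0162) passed here and at neither shorter step; the Sema3g call was lost without P0 replicate 2 or P28 replicate 2 (log2 fold change −1.49 to −1.41, adjusted p 0.0517 to 0.0550). Sema5a (−0.29 ± 0.24, adjusted p = 0.297) passed without P14 replicate 2 (−0.29, adjusted p = 0.0316) and in limma on the 8 libraries (−0.29, adjusted p = 0.0420). Its log2 fold change stayed the same, since P14 libraries enter this comparison through the estimate of the spread, which the 3 ages share. The mean was highest at P0 in 23 of the 31 genes, at P14 in 2 (Sema3b and Plxnb3) and at P28 in 6. Some of these means hardly differed, as for Sema4d with 45.76 scaled CPM at P0 and 45.85 at P28. No such count was made over all genes.

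Levels of different genes were compared per kilobase of exon, as scaled CPM per kb. The length was the union of all annotated exons of a gene. Whether reads in introns were counted is not known, so orders, sums and shares per kb depend on this choice of length. At P0 Sema7a (62.5), Sema4g (47.3) and Sema4c (41.1) led the semaphorins, each overlapping the next, and all 3 lay above Sema6c (29.2) and Sema6b (28). By P14 Sema7a (53.4) stood above every other semaphorin without overlap, followed by Sema6b (29.5), then Sema4a (16.9) and Sema4f (15.7), which overlapped. The order of the first 4 was alike at P28, at 59.9, 43.9, 17.8 and 16.9. Sema4g and Sema4c stood at 4.88 and 6.70 by then.

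Among the receptors at P0, Plxna2 (41.5 scaled CPM per kb), Plxnb2 (39.1), Plxna1 (38.3), Plxna4 (37.4), Plxnd1 (33.6), Plxna3 (33) and Nrp1 (30.4) formed a run in which each overlapped the next. At P14 Plxnd1 (28.5) lay above all others without overlap, ahead of Plxna2 (17.6) and Plxna1 (13.4). At P28 the values were 32.5, 18.8 and 13.8. Plxnb3 was last at every age (0.158, 1.63 and 1.05).

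The plexin sum, all 9 genes added per kb, was 259 ± 18.9 (SD, n = 4) at P0, 107 ± 9.72 at P14 and 113 ± 4.44 at P28. The class A plexins within it summed to 150.2 ± 16.5, 51.9 ± 9.10 and 51.1 ± 2.56. The share of Plxnd1 in the plexin sum was 13% ± 0.973, 26.8% ± 3.38 and 28.6% ± 1.64 at P0, P14 and P28. The neuropilins summed to 49.5 ± 7.68, 15.5 ± 0.893 and 14.3 ± 1.09, and the 20 semaphorins to 327 ± 16.7, 186 ± 7.09 and 202 ± 6.61. Within the class 3 sum of 48.5 ± 4.31, 19.4 ± 1.77 and 18.1 ± 1.92, the share of Sema3c was 32% ± 6.70, 13% ± 2.54 and 8.23% ± 1.15, that of Sema3e 2.49% ± 0.441, 15.7% ± 3.42 and 20.7% ± 0.900 and that of Sema3f 44.7% ± 7.64, 38.2% ± 12.4 and 45.3% ± 3.64. These sums and shares are descriptions, with no test.

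**Figure D4:**
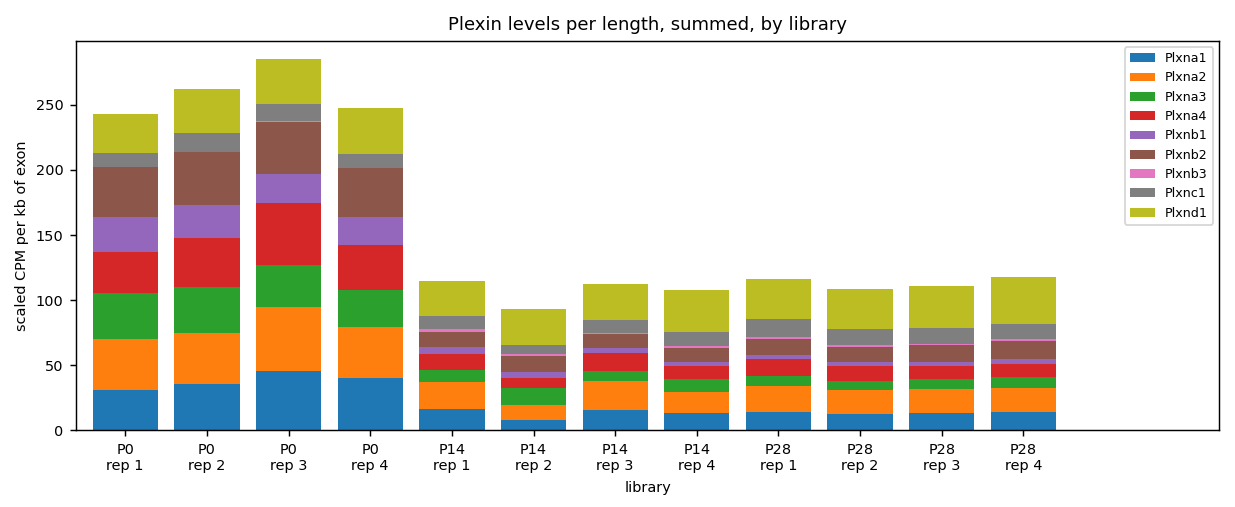
Summed level of the 9 plexins in each library, in scaled CPM per kb of exon, stacked by gene. All 4 P0 libraries have higher sums than the later ones, and the mean share of Plxnd1 is 13% at P0 and 28.6% at P28.

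Ligands and their known receptors were set side by side, and no relation between their changes was tested. For the change from P0 to P14, Sema3a (−0.89) and its receptor Nrp1 (−1.36) both fell, as did Sema3f (−1.56) and Nrp2 (−2.29). Sema4c (−3.22) and Sema4g (−2.33) fell with Plxnb2 (−1.82), and Sema6d (−1.52) fell with Plxna1 (−1.54). In other pairs 1 partner moved without the other passing: Sema4d (−0.44, adjusted p = 0.160) and Plxnb1 (−2.45), Sema6b (0.08, 0.590) and Plxna4 (−1.79). Sema3e rose (1.28) where Plxnd1 had −0.24. Sema7a had −0.23 (0.0712) and its receptor Plxnc1 −0.36 (0.0362), and Plxnb3 rose (2.88) where its ligand Sema5a had −0.37 (0.180).

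Other genes of the pathway were read from a list of 60 co-receptors, further neuropilin ligands, cytoplasmic effectors and proteases. From P0 to P14, 36 of the 60 fell and 15 rose, beside 34.5% and 34.4% of all genes, with a median of −0.62. The 14 co-receptors held 11 falls and 3 rises, the 36 effectors 19 and 10, the 5 proteases 4 and 1, and the 5 neuropilin ligands 2 and 1. Kdr, a VEGF receptor of vessels that can join Sema6d signalling, went from 153 to 7.61 scaled CPM (log2 fold change −4.40 ± 0.41, adjusted p = 6.50e-07). Flt1, another vessel receptor, had means of 108, 12.7 and 7.35 scaled CPM at P0, P14 and P28. Dpysl3, a collapsin response mediator that carries semaphorin signals to the cytoskeleton, went from 3736 to 179.8 scaled CPM (log2 fold change −4.38 ± 0.12, adjusted p = 1.21e-11). Cntn2, an axonal adhesion molecule, went from 1137 to 102 scaled CPM (log2 fold change −3.48 ± 0.11, adjusted p = 2.22e-11).

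Among pathway genes that met the limits on library overlap and mean level given with the processing, the 3 largest rises were in effectors. These rises are over the same interval. Without these limits the co-receptors reached a log2 fold change of 1.43, above that of Cdk5. Mical2, an actin-oxidizing enzyme whose family acts downstream of plexins, went from 107 to 466 scaled CPM (log2 fold change 2.13 ± 0.12, adjusted p = 5.27e-09). Rap1gap, which turns off Rap1, the GTPase that plexins also act on, went from 83 to 300.5 scaled CPM (log2 fold change 1.85 ± 0.09, adjusted p = 8.70e-10). Cdk5, a neuronal kinase that phosphorylates collapsin response mediators, went from 93.1 to 215 scaled CPM (log2 fold change 1.17 ± 0.14, adjusted p = 8.87e-06).

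From P14 to P28, 15 of the 60 pathway genes fell and 4 rose, beside 9.09% and 9.22% of all genes, with a median of −0.15. Pak1, a kinase that regulates actin, went from 294 to 495 scaled CPM (log2 fold change 0.78 ± 0.14, adjusted p = 0.00299), and Cntn2 went from 102 to 173 scaled CPM (log2 fold change 0.77 ± 0.11, adjusted p = 5.42e-04). Vegfb, a VEGF family ligand of Nrp1, went from 16.4 to 26.2 scaled CPM (log2 fold change 0.66 ± 0.09, adjusted p = 5.70e-04). Dpysl5, a relative of Dpysl3, went from 144 to 49 scaled CPM (log2 fold change −1.53 ± 0.14, adjusted p = 3.58e-05), and Mmp14, a membrane-bound protease, from 8.16 to 2.03 scaled CPM (log2 fold change −1.75 ± 0.23, adjusted p = 3.98e-04). Kdr went from 7.61 to 1.84 scaled CPM (log2 fold change −1.56 ± 0.41, adjusted p = 0.0206) and passed in 22 of the 26 settings, failing without P14 replicate 1 or 3 or P28 replicate 1 or 2 (log2 fold change −1.50 to −1.28, adjusted p 0.0515 to 0.0570). From P0 to P28, 38 fell and 15 rose (median −0.75), beside 35.6% and 35.7% of all genes, with Dpysl3 at −5.77 and Mical2 at 2.47.

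Other families of guidance genes were set beside these for scale. From P0 to P14, 13 of 21 ephrins and Eph receptors that were tested fell and 3 rose (median −1.23), 6 of 10 slit and robo genes fell and 2 rose (−0.83), and 6 of 12 netrin genes and their receptors fell and 3 rose (−0.39), beside 34.5% and 34.4% of all genes. From P14 to P28, 3 ephrin and Eph genes fell and 2 rose, 2 slit and robo genes fell and 3 netrin genes rose, beside 9.09% and 9.22% of all genes. Whether any of these families differs from the semaphorins, plexins and neuropilins was not tested.

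P14 replicate 2 took different positions for genes of different length. Of the 14 genes that span 100 kb or more, from the first to the last base of the gene, it was below the other 3 P14 libraries in 11, above them in 2 and within them in 1. Of the 17 shorter genes it was below in 5, above in 9 and within in 3. The 100 kb limit was chosen after the values were seen, and these counts were not made over all genes. On the log2 scale its value against the mean of the others was −1.41 for Sema4d, −1.22 for Sema5a, −1.17 for Sema3d and, among the shorter genes, −2.09 for Sema3g. It was 0.60 for Sema4a and 0.59 for Plxna3. Spearman's rho between span and this deviation was −0.49 over the 31 genes and −0.16 over 14468 genes, a description within 1 library. Between span and the change from P0 to P14 it was 0.01 over the 31 genes.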

How the data were processed

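Polyadenylated nuclear RNA was extracted with the Zymo Quick-RNA Miniprep kit and made into TruSeq stranded mRNA libraries, per the labels' protocols. The authors deposited 1 normalized signal table per age, and DESeq2 and the mm10 build are named in the submitters' processing notes; no source used here gives the aligner, counter, strand setting or annotation. In the deposited values every entry, divided by 1 factor per library, came out as a whole read within 0.05 of a read (100% in each of the 12 columns), so reads were recovered; a value at 0 allows up to 3 reads. The 3 tables were normalized separately. CPM were therefore taken over the 25834 genes listed in all of them and divided by median-of-ratios factors (0.936 to 1.04). Genes with at least 1 scaled CPM in 4 libraries were kept (15734). They were tested as log2(scaled CPM + 0.5) with limma 3.58.1 in R 4.3.3 (trend and robust, age as a factor of 3 levels, all 12 libraries, two-sided, Benjamini-Hochberg, threshold 0.05). The replicates are labelled biological, but which animals they came from is not stated, so p-values measure the spread between these libraries. The code was tested on simulated data. Alternatives were 26 other settings, among them edgeR 4.0.16 and DESeq2 1.42.0 on the recovered reads.

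The 31 genes and the lists of pathway genes, other guidance families and markers were chosen with earlier results of these data known. All 31 genes are named; of the pathway lists, the 3 largest rises and 3 largest falls whose libraries did not overlap and whose mean reached 5 scaled CPM at 1 of the ages. Exon lengths came from GENCODE vM1, matched by gene ID for all 31; spans and positions came from RefSeq GRCm38.p6.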

Additional observations from a re-analysis of the deposited data

Results flagged for a closer look

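In 6 of the 93 combinations of gene and age, 1 library lay far from the other 3 by Dixon's test at its 95% critical value for 4 samples; chance gives about 1 in 20 such groups. Sema4d at P28 had 52.2 scaled CPM in replicate 1, against 42.8 to 44.4 in the others. Sema4g at P0 had 286 in replicate 1, against 205 to 219. Plxna2 at P0 had 742 in replicate 3, against 585 to 592. Plxna3 at P28 had 64.6 in replicate 4, against 55.9 to 57.0. Plxnb3 at P28 had 8.76 in replicate 1, against 5.97 to 6.42. Plxnd1 at P14 had 235 in replicate 4, against 194 to 196. None of the 6 was in P14 replicate 2.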

How the results depend on the processing

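Of the 31 genes, 22 kept their call from P0 to P14 in all 26 other settings, 18 from P14 to P28 and 27 from P0 to P28. Direction was compared only for changes that passed in the limma fit above or in the other setting. Sema3b and Sema3d had 25 other settings, since a filter at a mean of 5 scaled CPM removes them. The deposited values as they stand move the median of all genes by 0.47, −0.20 and 0.28 in the 3 comparisons. With them, 9 of the 31 genes rose from P0 to P14, beside 8567 of all 15759. From P14 to P28, 8 fell, beside 3862 of all genes. DESeq2 also gave 8 falls from P14 to P28, beside 2085 of all 15734 genes. Some signs reversed between the scaled and the deposited values. Among changes that passed on at least 1 of the 2, these were Sema5b (0.47), Sema7a (0.26), Plxnc1 (0.12) and Plxnd1 (0.24) from P0 to P14. From P0 to P28 it was Plxnd1 (0.23). Signs also reversed for changes that passed on neither, such as Sema3d (0.01) and Sema5a (0.11) from P0 to P14 and Sema4a (−0.10) from P14 to P28. With 1 library left out, 15447 to 15689 genes were tested. From P0 to P14, 17 to 20 of the 31 genes fell and 3 to 4 rose, beside 4901 to 5759 and 5078 to 5702 of all genes. From P14 to P28, 3 to 8 fell and 2 to 5 rose, beside 900 to 2086 and 877 to 1968 of all genes. From P0 to P28, 18 to 20 fell and 5 rose, beside 5041 to 6103 and 5230 to 6164 of all genes. Over all genes, 2881 changed from P14 to P28; the count was 4536 with the deposited values, 1738 without both merged libraries (P0 replicate 1 and P28 replicate 4) and 1785 to 4054 with 1 library left out, the highest without P14 replicate 2. With the replicate block, 18 genes fell and 4 rose from P0 to P14, beside 5321 and 5311 of all 15734. From P14 to P28, 5 fell and 2 rose, beside 1163 and 1194 of all genes. From P0 to P28, 19 fell and 5 rose, beside 5489 and 5498 of all genes. Plxnc1 lost its call from P0 to P14 (adjusted p = 0.0674), and from P14 to P28 Nrp1 lost one (0.0690) and Plxnb3 gained one (0.0468). The number does not pair the samples, since same-numbered libraries correlated at −0.51 to 0.36 in their deviations from the age means and not every library correlated best with its own number. Depth limits Sema3b and Plxnb3, with 21 and 10 reads in their lowest libraries.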
